A study of Mus musculus with 2 samples.

Results

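Acan-positive contractile smooth muscle cells were examined in primary vascular smooth muscle cells (VSMCs) grown from the aorta of wild type mice and profiled by single-cell RNA sequencing after 5 days in culture. The series holds 2 libraries, labelled biological replicates 1 and 2, of 1 genotype and 1 condition, with no treatment. They were made with the 10x Genomics 3′ v3 chemistry, in which each captured transcript carries a unique molecular identifier (UMI), so that 1 UMI counts 1 transcript molecule. The matrices summed to 127949633 UMIs in replicate 1 and 132561822 in replicate 2, and 4866 and 6824 barcodes were kept as cells, with a minimum of 300 genes and of 3000 UMIs and a mitochondrial share under 20%. A passing cell held a median of 22234.5 UMIs in replicate 1 and 16310 in replicate 2, and 9 passing barcodes occurred in both libraries.

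The cells described here were chosen by their own counts: at least 5 UMIs of Myh11, under 3 UMIs summed over the cycling genes Mki67, Top2a and Cenpf, and at least 1 UMI of Acan. This left 137 cells of the 806 non-cycling contractile cells and of all 11690 cells, 71 in replicate 1 and 66 in replicate 2. Since Acan, Myh11 and the 3 cycling genes chose the cells, their values are descriptions and were left out of every test. The cells of a library share 1 culture, so sets of cells were compared as sums per library and n is 2 throughout.

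Myh11 encodes the smooth muscle myosin heavy chain, a motor protein of the contractile apparatus and a strict marker of differentiated VSMCs. Acan encodes aggrecan, a large proteoglycan that carries chondroitin sulfate chains, binds hyaluronan through link proteins and holds water in cartilage; it is cut by proteases of the ADAMTS family. In culture and in diseased arteries, contractile VSMCs can lose their contractile proteins and take on a modulated state with more matrix synthesis, and cartilage genes are often used to describe part of that modulated population. Acan (ENSMUSG00000030607) lies on the plus strand at chr7:79053483-79115099 of GRCm38, the assembly also called mm10, and Myh11 (ENSMUSG00000018830) on the minus strand at chr16:14194535-14291372.

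The Acan-positive cells carried the smooth muscle label well. Acta2, the smooth muscle actin, stood at 20800 counts per 1000000 UMIs (CPM) in the Acan-positive cells of replicate 1 and 18470 in those of replicate 2, against 3481 and 1971 CPM in non-cycling cells without a Myh11 UMI. Cnn1, the actin-binding protein calponin, stood at 787 and 582 CPM against 64.3 and 6.33 CPM. Myocd, a coactivator of the contractile program, stood at 45.8 and 27.5 CPM against 1.31 and 0.848 CPM. These genes follow Myh11, which the rule used, so the differences are given without a test. The cartilage side of the label was thinner: Col2a1, the main collagen of cartilage, had 2 UMIs in the 71 cells of replicate 1 and 1 UMI in the 66 cells of replicate 2. Of 8 genes that define chondrocytes, 4 had no UMI in any of the 4 sums compared below.

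Acan was detected in 24.6% of the non-cycling contractile cells of replicate 1 (71 of 289 cells, exact 95% interval 19.7 to 29.9%) and in 12.8% of those of replicate 2 (66 of 517, 10.0 to 16.0%). The intervals cover counting error only. The 2 libraries differed in depth, with medians of 23776 and 18405 UMIs per contractile cell, and with each cell thinned to 3000 UMIs the expected shares were 12.7% and 4.28%. Acan itself stood at 75.3 CPM over all contractile cells of replicate 1 and at 16.3 CPM in replicate 2. The number of Acan UMIs per member also differed: in replicate 1 the median was 5 and the highest 29, and 38 of the 71 cells held 5 or more, whereas in replicate 2 the median was 2, the highest 11, and 9 of the 66 cells held 5 or more. The 10 cells with the most Acan held 40.1% and 42.6% of all Acan UMIs of the members. Just inside the limit, 14 and 28 members rested on a single Acan UMI.

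The level of free RNA was measured for comparison. Barcodes with at most 100 UMIs gave Acan at 7.79 CPM in replicate 1 and 1.60 CPM in replicate 2, and at the amount of free RNA estimated from endothelial transcripts in contractile cells (5.29% and 4.19% of UMIs) this alone would give an Acan UMI to 1.03% and 0.134% of contractile cells. In endothelial cells, taken as cells with no Myh11 UMI and at least 5 UMIs over 5 endothelial genes, Acan was found in 0 of 97 and 0 of 138 cells, which allows shares of cells with a UMI of up to 3.09% and 2.17% by the limit of 3 counts, and of up to 3.73% and 2.64% by the exact 95% interval. Their median depths were 14002 and 10054 UMIs, lower than those of the contractile cells.

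Detection of Acan varied with Myh11. Among non-cycling cells with no Myh11 UMI it was found in 0.821% of 2315 cells (replicate 1) and 0.434% of 3686 cells (replicate 2). Free RNA alone would give an Acan UMI to 1.03% and 0.134% of contractile cells. Those were deeper, at medians of 23776 and 18405 UMIs against 19562 and 14341, so these shares are not directly comparable. Acan stood at 0.978 and 0.644 CPM in the cells without Myh11. From free RNA 0.412 and 0.0669 CPM were expected in contractile cells. At 5 to 9 Myh11 UMIs the shares were 7.75% and 9.69%, and at 10 to 19 they were 25.0% and 15.5%. At 20 or more Myh11 UMIs the libraries parted, with 42 of 84 cells in replicate 1 (exact 95% interval 38.9 to 61.1%) and 11 of 77 cells in replicate 2 (7.35 to 24.1%). After thinning, the shares at the lowest and highest Myh11 counts were 0.220% and 26.2% in replicate 1, and 0.203% and 4.93% in replicate 2. Just outside the Myh11 limit, 6 of 50 cells with exactly 4 Myh11 UMIs held Acan in replicate 1 and 3 of 65 in replicate 2; just inside it, at exactly 5, the counts were 0 of 19 and 5 of 44. The members held 48.2% of all Acan UMIs of replicate 1 and 38.9% of those of replicate 2, and cycling contractile cells, which the rule leaves out, another 40.6% and 29.4%. Cells with 1 to 4 Myh11 UMIs held 5.62% and 20.7%, and cells without Myh11 held 5.62% and 11.03%.

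**Figure D1:**
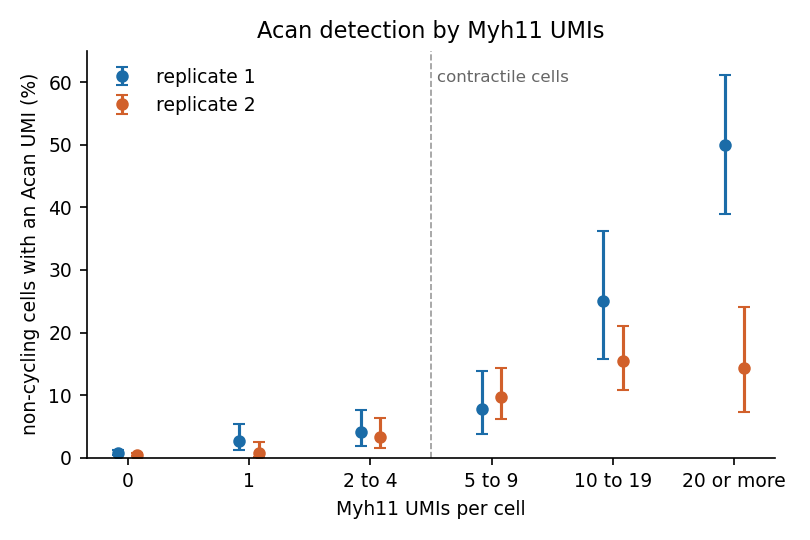
The share of non-cycling cells with at least 1 Acan UMI (vertical axis, %) against Myh11 UMIs per cell (horizontal axis), for replicate 1 (blue) and replicate 2 (orange), with exact 95% binomial intervals as bars. In each bin left of the dashed line at 5 Myh11 UMIs both libraries are under 5%; right of it replicate 1 reaches 42 of 84 cells and replicate 2 stays at or under 15.5%.

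To ask which other genes go with Acan among contractile cells, each member was paired with a contractile cell of the same library that had 0 Acan UMIs and a total UMI count within 10%. All 71 and 66 members found a partner. The 4 sums held 1834877 and 1830493 UMIs in replicate 1 and 1310065 and 1309762 in replicate 2, Acan-positive first. Depth was therefore even, but Myh11 was not: it stood at 924 CPM in the Acan-positive and 626 CPM in the Acan-negative cells of replicate 1, and at 706 and 620 CPM in replicate 2. The 2 sets also differed in cells with signs of the modulated state. In replicate 1, 11.3% of Acan-positive and 67.6% of Acan-negative cells held a UMI of Pdgfra or Lum, genes of mesenchymal and fibroblast-like cells; in replicate 2 the shares were 18.2% and 24.2%. The comparison without such cells is given further on.

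Few genes passed the test. Of 8663 genes tested with edgeR's quasi-likelihood test on the 4 sums, with the library as a block, 6 (0.0693%) had an adjusted p under 0.05: 1 was higher in Acan-positive cells (0.0115%) and 5 were lower (0.0577%). Another tool or scaling gave other splits, 5 higher and 9 lower with DESeq2 and 1 higher and 0 lower without TMM scaling. Without the library as a block no gene passed, and 509 had an unadjusted p under 0.05, against 736 with it.

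Serpinf1 encodes pigment epithelium-derived factor, a secreted serpin that is abundant in fibroblasts. It stood at 38.7 CPM in Acan-positive and 386 CPM in Acan-negative cells of replicate 1, and at 15.3 and 77.1 CPM in replicate 2. The sums did not overlap between sets, as held for 32.6% of all 8663 tested genes, and the level was 9.97 and 5.05 times higher in the Acan-negative cells (log2 fold change -2.91 ± 0.28 (SE), adjusted p = 0.0277). It was found in 14.1% of the Acan-positive and 76.1% of the Acan-negative cells of replicate 1, and in 13.6% and 25.8% of those of replicate 2. In replicate 2, 1 Acan-negative cell held 34 of its 101 UMIs.

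Igfbp4, a secreted binding protein of insulin-like growth factors, stood at 96.5 and 442 CPM in replicate 1 and at 38.2 and 132 CPM in replicate 2, Acan-positive first. It fell by 1.99 ± 0.21 on the log2 scale (adjusted p = 0.0285), with no overlap between sets, although 1 Acan-negative cell of replicate 2 held 71 of 173 UMIs. Basp1, a membrane-bound protein of the cell cortex, stood at 32.2 and 211 CPM in replicate 1 and at 4.58 and 44.3 CPM in replicate 2, a fall of 6.56 and 9.67 times (log2 fold change -2.83 ± 0.27, adjusted p = 0.0277). Its replicate 2 value in Acan-negative cells came from 10 of 66 cells.

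Svep1, a large adhesion protein of the extracellular matrix, stood at 12.5 and 158 CPM in replicate 1 and at 7.63 and 41.2 CPM in replicate 2 (log2 fold change -3.18 ± 0.34, adjusted p = 0.0294). Cygb, the oxygen-binding protein cytoglobin, stood at 3.82 and 71.0 CPM in replicate 1 and at 1.53 and 13.7 CPM in replicate 2 (log2 fold change -3.92 ± 0.40, adjusted p = 0.0277). Both were thin in replicate 2, where the Acan-negative sum rested on 9 cells for Svep1 and 6 cells for Cygb. In all 5 genes the Acan-negative cells of replicate 1 stood highest; none overlapped between sets, which by itself says little beside the 32.6% of all tested genes that did not and for genes picked by their p. The 5 genes lie at chr11:75409769-75422701 (Serpinf1, minus strand), chr11:99041244-99054392 (Igfbp4, plus), chr15:25363277-25413764 (Basp1, minus), chr4:58042442-58206859 (Svep1, minus) and chr11:116645595-116654313 (Cygb, minus).

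The single gene that was higher, Crct1, was carried by a handful of cells. Crct1 is a small cysteine-rich protein gene of the epidermal differentiation region, at chr3:93014205-93015687 on the minus strand. It stood at 191 CPM in Acan-positive and 1.09 CPM in Acan-negative cells of replicate 1, and at 44.3 and 0 CPM in replicate 2 (log2 fold change 7.55 ± 0.46, adjusted p = 0.00257). The size depended on the cells compared. The log2 fold change was 5.34 in pairs matched also on Myh11 and 5.06 without cells with Pdgfra or Lum UMIs. It was 4.25 with all Acan-negative cells unmatched. The 2 libraries alone gave 6.35 and 5.16, but their Acan-negative sums held 2 and 0 UMIs. With a floor of 3 counts for those sums, the level was at least 116.7 and 19.33 times higher in the Acan-positive cells of these pairs. That bound does not hold for other Acan-negative cells. In pairs matched also on Myh11, Crct1 stood at 216.5 and 6.32 CPM in replicate 1 (350 and 10 UMIs). In replicate 1, 9 of the 71 cells held its 351 UMIs and 1 cell held 160 of them. In replicate 2, 3 of the 66 cells held its 58 UMIs and 1 cell held 54. The call was thus that of 12 cells, not of the 137 cells in general, and Crct1 had no UMI in cells with a single Acan UMI in either library.

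The next 5 genes by p on the higher side did not pass the adjusted threshold and are given as values. Eln, which encodes elastin, the elastic polymer of the aortic wall, stood at 2672 and 825 CPM in replicate 1 and at 4260 and 2487 CPM in replicate 2, Acan-positive first. It was 3.24 and 1.71 times higher, without overlap between sets (log2 fold change 1.25 ± 0.21, adjusted p = 0.136), and was found in 95.8% and 74.7% of the cells of replicate 1 and in 66 and 63 of the 66 cells of each set of replicate 2. Igfbp2, another secreted binding protein of insulin-like growth factors, stood at 7399 and 1353 CPM in replicate 1 and at 4391 and 2075 CPM in replicate 2 (log2 fold change 1.79 ± 0.29, adjusted p = 0.129). It was found in 95.8% and 57.7% of the cells of replicate 1 and in 95.5% and 83.3% of those of replicate 2, with at most 6.73% of the UMIs of an Acan-positive sum in 1 cell. Unlike Crct1, both were thus spread over the members.

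Olfml2b, a secreted olfactomedin-domain protein, stood at 621 and 150 CPM in replicate 1 and held 393 and 200 UMIs in the sums of replicate 2 (log2 fold change 1.54 ± 0.27, adjusted p = 0.145). P2rx1, a cation channel opened by ATP in smooth muscle, stood at 48.5 and 4.37 CPM in replicate 1 and at 13.7 and 3.82 CPM in replicate 2 (2.94 ± 0.45, adjusted p = 0.129), and 1 cell held 9 of its 18 UMIs in the Acan-positive sum of replicate 2. Cldn3, a tight junction protein, stood at 114 and 16.4 CPM and at 49.6 and 20.6 CPM (2.12 ± 0.38, adjusted p = 0.161). On the lower side the next 5 by p were Bok (-2.60 ± 0.32), Col12a1 (-1.88 ± 0.24), Plac8 (-3.18 ± 0.44), Tmem119 (-2.84 ± 0.39) and Islr (-2.16 ± 0.31), with adjusted p between 0.0648 and 0.108. Tmem119 overlapped between sets, with 8.72 CPM in the Acan-positive cells of replicate 1 and 4.58 CPM in the Acan-negative cells of replicate 2. Its replicate 2 sums held 2 and 6 UMIs, Acan-positive first. For Plac8 in replicate 2, 1 Acan-negative cell held 35 of 53 UMIs, and the Acan-positive sum held 1 UMI.

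**Figure D2:**
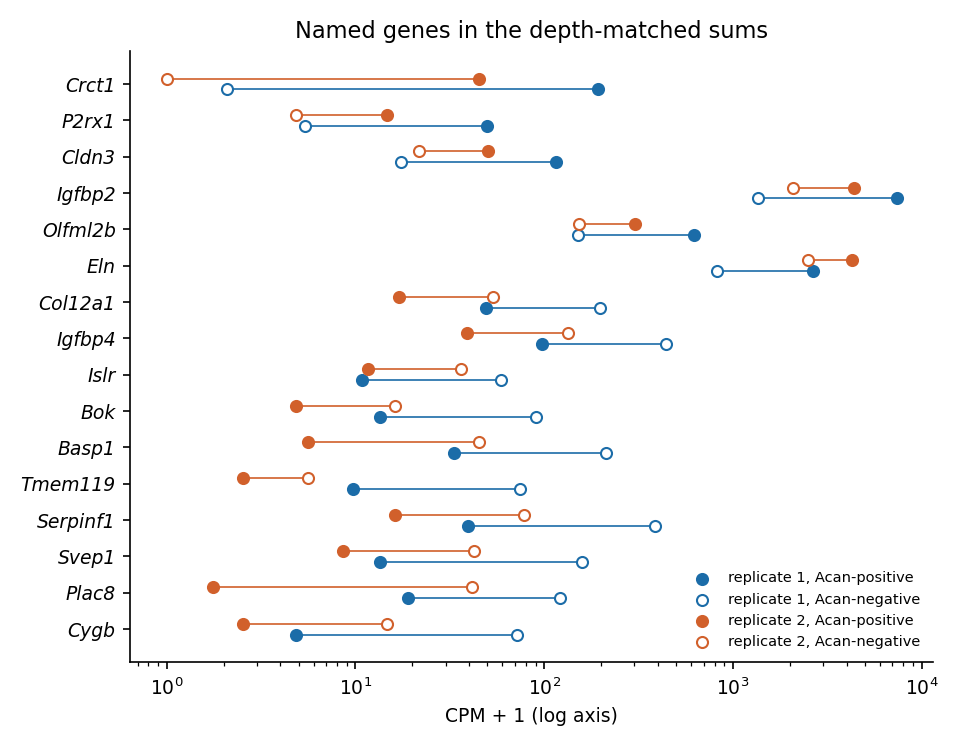
CPM plus 1 on a log axis for the 16 named genes (vertical axis, ordered by log2 fold change) in the 4 depth-matched sums: replicate 1 in blue, replicate 2 in orange, Acan-positive filled, Acan-negative open, with a line joining the 2 sums of a library. Igfbp2 and Eln are the most abundant and stand higher in the filled points of both libraries; Serpinf1 is at 38.7 CPM against 386 in replicate 1, and at 15.3 CPM against 77.1 in replicate 2.

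**Figure D3:**
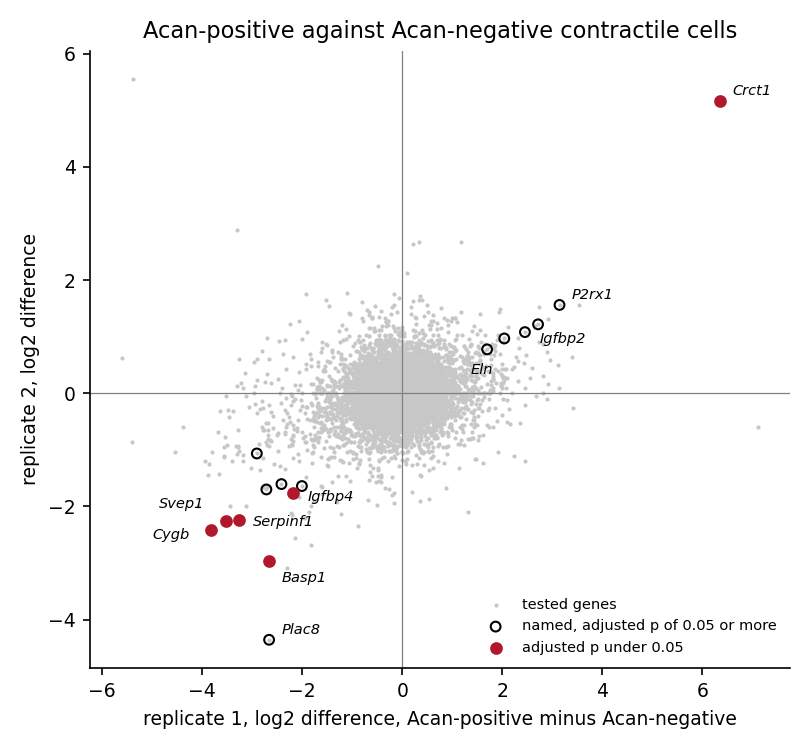
The log2 difference between Acan-positive and Acan-negative cells in replicate 1 (horizontal axis) and replicate 2 (vertical axis) for the 8663 genes tested (grey), the named genes with an adjusted p of 0.05 or more (open circles) and the 6 genes under it (red). The red points lie far from 0 in both libraries, Crct1 at the upper right and the 5 lower genes at the lower left, and the differences of most named genes are larger in replicate 1.

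Within the members, levels were followed over the number of Acan UMIs per cell, as a description. The groups with 1, 2 to 4 and 5 or more Acan UMIs held 14, 19 and 38 cells in replicate 1. In replicate 2 they held 28, 29 and 9 cells. Igfbp4 stood at 350 CPM in cells of replicate 1 with 1 Acan UMI, 94.1 CPM with 2 to 4 and 27.96 CPM with 5 or more. In replicate 2 it stood at 41.9, 31.6 and 44.5 CPM, so that the steps of replicate 1 were not seen there. Serpinf1 stood at 160, 2.14 and 21.4 CPM in replicate 1 and at 17.1, 5.58 and 32.4 CPM in replicate 2. These values rested on 47, 1 and 23 UMIs in replicate 1 and on 9, 3 and 8 UMIs in replicate 2. The 47 UMIs came from 21.4% of the 14 cells. Eln was above the Acan-negative level of its library from the first UMI on, at 2157, 3273 and 2551 CPM in replicate 1 and at 4100, 4404 and 4285 CPM in replicate 2. Igfbp2 stood at 2996, 8949 and 7931 CPM and at 4226, 4170 and 5220 CPM.

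**Figure D4:**
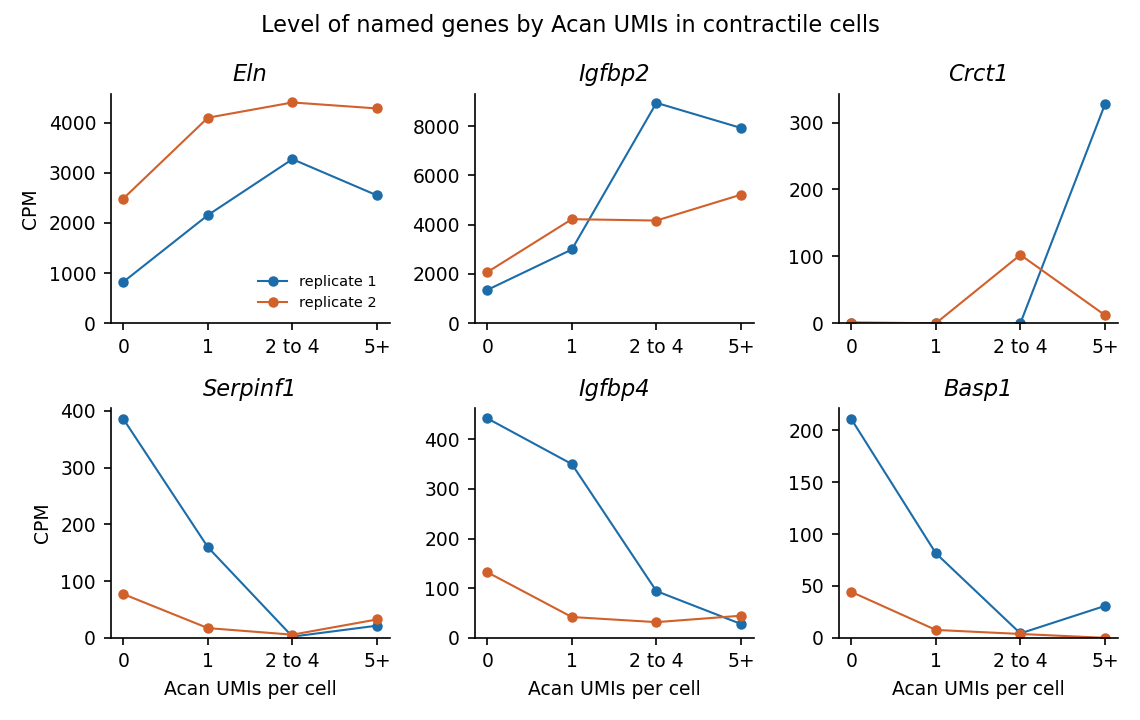
CPM (vertical axis) of 6 genes in contractile cells grouped by Acan UMIs per cell (horizontal axis; 0 is the depth-matched Acan-negative set), replicate 1 in blue and replicate 2 in orange, without error bars since each point is 1 sum. Eln and Igfbp2 are higher at every step above 0 in both libraries, Serpinf1, Igfbp4 and Basp1 are lower, and Crct1 is at 0 in cells with 1 Acan UMI.

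Across the gene lists, Serpinf1 was the single member that passed the test. Of all 8663 genes tested 0.0693% passed, so a list without a call is near that share and says little about its members. Of 25 contractile and cytoskeletal genes, 23 were tested and none passed, with 17 above and 6 below 0 and a median log2 fold change of 0.26, against 0.0022 over all tested genes. Acta2 stood at 20800 and 14980 CPM in replicate 1 and at 18470 and 15090 CPM in replicate 2 (adjusted p = 0.202), and Tagln, the actin-binding protein transgelin, at 10990 and 6791 CPM and at 9723 and 9082 CPM (adjusted p = 0.456). Of 13 tested regulators of the smooth muscle state none passed (median -0.21), and Klf4, a factor linked with loss of the contractile state, stood at 47.4 and 150 CPM and at 68.7 and 98.5 CPM (adjusted p = 0.284). Myocd stood at 45.8 and 19.1 CPM and at 27.5 and 22.1 CPM (adjusted p = 0.477).

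No cartilage gene passed, beside 0.0693% of all 8663 genes tested. Of 27 cartilage genes 6 were tested, and their median was -0.91. Sox9, the master regulator of chondrocytes, stood at 9.27 and 14.8 CPM in replicate 1 and at 50.4 and 65.7 CPM in replicate 2 (log2 fold change -0.47 ± 0.26, adjusted p = 0.722). Wwp2, a ubiquitin ligase whose gene is active in cartilage, stood at 158 and 44.3 CPM and at 118 and 92.4 CPM (adjusted p = 0.394), and Col11a1, a minor fibrillar collagen of cartilage, at 8.72 and 76.5 CPM and at 6.87 and 6.87 CPM (adjusted p = 0.280). Of 9 tested tendon and fibrocartilage genes none passed (median -0.27), with Thbs1, a matricellular glycoprotein, at 1500.0 and 2247 CPM and at 1256 and 874 CPM.

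The partners of aggrecan were scarce or did not pass. Of 25 partners and proteases 11 were tested, none passed, and the median was 0.12. The link protein Hapln1 and the hyaluronan synthase Has2 had 0 UMIs in both Acan-positive sums, and Has3 had none in any sum. Cd44, a hyaluronan receptor, stood at 247 and 158 CPM and at 79.4 and 80.9 CPM (adjusted p = 0.787). Adamts5, an aggrecan-cutting protease, stood at 88.8 and 444 CPM and at 138 and 176 CPM (adjusted p = 0.381), and Timp3, an inhibitor of such proteases, at 357 and 1167 CPM and at 960 and 799 CPM (adjusted p = 0.728). Of 14 tested genes of chondroitin sulfate synthesis, which builds the chains on aggrecan, none passed and the median was 0.07; Chpf, a chondroitin polymerizing factor, stood at 61.0 and 53.0 CPM and at 54.2 and 53.4 CPM.

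No member of the other matrix and signalling lists passed, which is near the 0.0693% of all 8663 genes tested. None of 15 elastic fiber genes passed (median 0.03), nor of 16 collagens (median -0.31), 20 genes of the transforming growth factor beta response (0.00097), 9 of bone morphogenetic protein signalling and calcification (-0.15), 9 mechanical and YAP genes (0.17), 14 immediate early genes (-0.26), 10 of cGMP signalling (-0.10), 10 of position along the aorta (-0.35) or 12 further cycling genes (0.12). Fbln5, which binds elastin, stood at 529 and 580 CPM and at 1336 and 954 CPM (adjusted p = 0.847). Ctgf, a matricellular target of YAP, stood at 2357 and 1361 CPM and at 2511 and 1964 CPM (adjusted p = 0.236). Npr3, the natriuretic peptide clearance receptor, stood at 76.3 and 190 CPM and at 172 and 218 CPM (adjusted p = 0.395). Mgp, an inhibitor of calcification, stood at 8079 and 4682 CPM and at 4169 and 3831 CPM (adjusted p = 0.443).

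Genes of the modulated state were lower as values, with replicate 1 carrying most of the difference. Of 16 tested modulated-cell genes none passed, 12 were below 0 and the median was -0.90. Dcn, the matrix proteoglycan decorin, stood at 6.54 and 328 CPM in replicate 1 and at 38.2 and 70.2 CPM in replicate 2 (adjusted p = 0.372), and Lum, the related lumican, at 3.27 and 94.0 CPM and at 7.63 and 12.2 CPM (adjusted p = 0.216). Fn1, fibronectin, stood at 3617 and 2645 CPM and at 2685 and 2686 CPM (adjusted p = 0.736). Of 10 genes of adventitial fibroblasts 6 were tested and Serpinf1 was the single call; the list summed to 592 and 1061 CPM in replicate 1 and to 549 and 537 CPM in replicate 2, its most abundant gene was Gsn, and Pi16 and Clec3b had no UMI in either Acan-positive sum.

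Marker genes of other cell types were summed over each set, Acan-positive first. Of 10 endothelial genes 2 were tested and none passed; their sum was 30.0 and 92.9 CPM in replicate 1 and 42.8 and 12.2 CPM in replicate 2, led by Esam, and Cdh5 and Kdr had no UMI in the Acan-positive cells of replicate 1. Of 7 pericyte genes 4 were tested and none passed; their sum was 315 and 550 CPM and 354 and 277 CPM, led by Cspg4, and Vtn had no UMI in any sum. The 8 macrophage genes summed to between 2.73 and 14.8 CPM, with 5 of 8 at 0 in all sums and Lyz2 the most abundant. The 6 Schwann cell genes summed to between 2.29 and 16.9 CPM, with 4 of 6 at 0 in all sums and S100b the most abundant. The 8 genes that define chondrocytes summed to 10.3 and 15.8 CPM in replicate 1 and to 51.1 and 65.7 CPM in replicate 2, nearly all of it Sox9.

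Since Acan-positive cells held more Myh11, the comparison was repeated with cells paired on Myh11 UMIs as well, within 25%, and on total UMIs within 20%. This left 60 and 64 pairs. Of 8514 genes tested, 26 were higher (0.305%) and 95 lower (1.12%), among them all 6 genes above, although again no gene passed without the library as a block (571 at an unadjusted p under 0.05). The sums shared their members with those above, so that these calls are not separate evidence. Eln now passed, at 2291 and 906 CPM in replicate 1 and at 4290 and 2187 CPM in replicate 2 (log2 fold change 1.16 ± 0.10, adjusted p = 0.00192). Igfbp2 passed as well, at 6854 and 2457 CPM and at 4438 and 2942 CPM (1.04 ± 0.17, adjusted p = 0.0203).

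Further list members rose with them in the pairs matched on Myh11. Mgp rose by 0.56 ± 0.07 on the log2 scale (8213 and 6023 CPM, 4289 and 2673 CPM), Csrp2, a LIM-domain protein of smooth muscle, by 0.75 ± 0.10 (1634 and 962 CPM, 1381 and 827 CPM), and Spp1, the matrix phosphoprotein osteopontin, by 0.80 ± 0.15 (982 and 495 CPM, 222 and 148 CPM). Ctgf rose by 0.47 ± 0.09, Wwp2 by 1.25 ± 0.23 and Esam, an adhesion protein of endothelial and some mural cells, by 2.21 ± 0.39. Esam was scarce, at 30.3 and 6.32 CPM in replicate 1 and 14.1 and 3.18 CPM in replicate 2. No contractile or cytoskeletal gene of the 23 tested passed here, and their median was 0.099. None of 12 smooth muscle regulators, 11 aggrecan partners, 14 chondroitin sulfate genes, 10 cGMP genes, 11 genes of aortic position, 11 further cycling genes or 4 pericyte genes passed either.

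The genes that fell in those pairs included 6 of the 16 tested genes of the modulated list, against 1.12% of all genes tested. The list was written with earlier results of these data known. In the pairs matched on total UMIs, the sets already differed in cells with Pdgfra or Lum UMIs. The count is therefore a description and no test of the list. None of the 16 was called higher, 12 were below 0 and 4 above as values, and the list median was -1.05 against 0.00068 over all tested genes. Lum fell from 66.4 to 3.09 CPM in the first library and from 45.3 to 7.85 CPM in the second (adjusted p = 0.0062). Dcn fell from 247 to 6.80 CPM and from 142 to 39.3 CPM (adjusted p = 0.0268). Sfrp1, a secreted inhibitor of Wnt signalling, fell from 425 to 116 CPM and from 88.2 to 18.9 CPM (adjusted p = 0.00197), and Apoe, Gpnmb and Fgf18 also fell. Among cartilage, tendon and collagen genes Col11a1, Comp, Aspn and Col12a1 fell, of 6, 9 and 16 tested. Ltbp2, a microfibril-associated protein, Grem1, an antagonist of bone morphogenetic proteins, and the immediate early genes Egr3 and Nr4a1 were the other list members that fell, beside Serpinf1.

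Of the genes outside the lists, 5 were picked out after their values were seen, and none of these 5 passed in the pairs matched on total UMIs alone (adjusted p between 0.131 and 0.398). Ftl1 and Fth1, the light and heavy ferritin chains, fell from 4640 to 3150 CPM and from 4693 to 3461 CPM in replicate 1, and from 7127 to 4228 CPM and from 7550 to 5633 CPM in replicate 2 (log2 fold changes -0.66 ± 0.07 and -0.43 ± 0.06, adjusted p = 0.00557 and 0.0161). Hmox1, the heme-degrading oxygenase, fell by 1.64 ± 0.17 on the log2 scale (adjusted p = 0.00298), and Txnrd1, a thioredoxin reductase, and Gclm, a subunit of the enzyme that starts glutathione synthesis, fell as well (-0.999 ± 0.17 and -0.86 ± 0.17).

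When cells with any Pdgfra or Lum UMI were left out before pairing, 58 and 54 pairs remained, and 2 of 7983 genes passed, Crct1 and Igfbp2 (0.96 on the log2 scale, adjusted p = 0.0158). Olfml2b had a log2 fold change of 0.91 there, against 1.54 in the pairs with such cells, and Cldn3 of 1.05 against 2.12. For P2rx1 it was 2.57 against 2.94 and for Eln 1.23 against 1.25. Their adjusted p without such cells lay between 0.0723 and 0.143. None of the 5 lower genes was called without such cells either. Serpinf1 had a log2 fold change there of -3.12 (adjusted p = 0.122), Basp1 of -2.53 (0.098) and Igfbp4 of -1.95 (0.122), while Cygb and Svep1 fell under the filter on low counts and were not tested.

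Cycling contractile cells offered cells that the rule had left out. With the same limits on Myh11 but 3 or more cycling UMIs, Acan was found in 36.2% of 188 cells of replicate 1 and in 15.6% of 365 cells of replicate 2, at median depths of 31026.5 and 24307 UMIs. In 66 and 57 pairs matched on total UMIs, 3 of 9372 genes were higher (0.032%) and 7 lower (0.0747%). These cells come from the same 2 cultures, so they are other cells and not other replicates, and the comparison was chosen after the data were seen.

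Serpinf1 and Basp1, of the 5 lower genes, were called again. Serpinf1 stood at 87.0 and 332 CPM in replicate 1 and at 17.9 and 57.2 CPM in replicate 2 (log2 fold change -1.84 ± 0.18, adjusted p = 0.0317), and Basp1 at 40.6 and 246 CPM and at 17.9 and 52.9 CPM (-2.24 ± 0.26, adjusted p = 0.0419). Igfbp4, Svep1 and Cygb had log2 fold changes of -1.33, -1.69 and -1.02 and did not pass, with adjusted p of 0.138, 0.157 and 0.238. Fscn1, an actin-bundling protein, Ltbp2, Lpl, which encodes lipoprotein lipase, the growth factor gene Fgf18 and Gpc3, a cell-surface proteoglycan, fell as well.

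On the higher side of the cycling cells stood Des, Ramp1 and Susd5. Des, which encodes the muscle intermediate filament desmin, stood at 128 and 19.9 CPM in replicate 1 and at 35.0 and 8.59 CPM in replicate 2 (log2 fold change 2.504 ± 0.25, adjusted p = 0.0317). Ramp1, a subunit of the receptor of calcitonin gene-related peptide, stood at 222 and 81.4 CPM and at 154 and 59.4 CPM (1.43 ± 0.16), and Susd5 at 73.2 and 18.6 CPM and at 67.1 and 18.6 CPM (1.94 ± 0.21). Their sums did not overlap between sets, as held for 31.5% of the 9372 genes tested there. Eln was again higher without passing, at 2739 and 685 CPM and at 3227 and 1656 CPM (1.497 ± 0.22, adjusted p = 0.0891), and Crct1 was not tested there because it fell under the filter on low counts. In the lists, the calls were Des of 23 contractile, Ltbp2 of 16 elastic fiber, Fgf18 of 17 modulated and Serpinf1 of 6 adventitial fibroblast genes tested. Of these 10 calls, 9 were also called in the non-cycling pairs matched on Myh11 (Des was not, adjusted p = 0.772), and 7.44% of the 121 calls there were called in cycling cells.

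**Figure D5:**
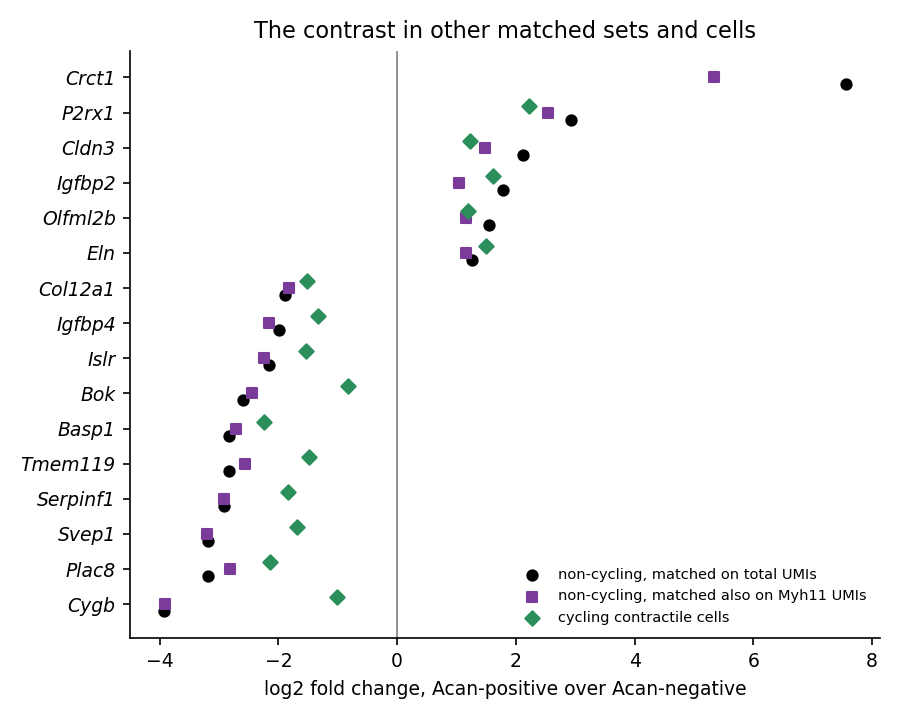
Log2 fold change of Acan-positive over Acan-negative cells (horizontal axis) for the 16 named genes in non-cycling contractile cells matched on total UMIs (circles), in those matched also on Myh11 UMIs (squares) and in cycling contractile cells (diamonds). All points of a gene lie on the same side of 0; the diamonds of Cygb (-1.02) and Bok (-0.83) lie nearest to it, and Crct1 has no diamond.

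An Acan UMI was also found in non-cycling cells without a Myh11 UMI, 19 cells of replicate 1 and 16 of replicate 2. In replicate 1 that share was 0.821%, at a median depth of 19562 UMIs. It did not exceed the 1.03% given by free RNA alone in contractile cells, at a median depth of 23776 UMIs. In replicate 2 it was 0.434%, against 0.134%. Acan over all non-cycling cells without Myh11 stood at 0.978 and 0.644 CPM. From free RNA 0.412 and 0.0669 CPM were expected in contractile cells. Which of these cells expressed Acan was not tested, so the comparison below is given as values of cells with and without a UMI. With each paired on total UMIs to a cell with neither gene, the Acan contrast was set against that of the contractile cells in 1 fit of 8 sums. Of 8385 genes, 1 differed between the classes (0.0119%), Crct1 (difference of log2 fold changes 9.47 ± 0.78, adjusted p = 0.00338), and none did without the block, where 285 genes had an unadjusted p under 0.05. In the cells without Myh11, Crct1 had 6 and 24 UMIs in replicate 1 and 0 and 1 UMI in replicate 2, Acan-positive first. Serpinf1 stood there at 408 and 339 CPM and at 99.0 and 293 CPM, which overlap between sets, and Basp1 at 239 and 223 CPM and at 30.1 and 38.7 CPM, which overlap too; their differences between classes did not pass (adjusted p = 0.384 and 0.163). Eln stood at 254 and 53.5 CPM and at 1575 and 306 CPM in these cells (adjusted p of the difference = 0.756). These sets held 19 and 16 pairs of cells, and the spread was estimated from the sums, not from the cells.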

How the data were processed

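The authors deposited unfiltered 10x matrices of UMI counts (whole counts per gene and barcode, no normalization), made with Cell Ranger 3.0.2 on mm10 per the submitters' processing notes; the header of the replicate 2 matrix names 3.1.0. The cells were chosen, and the 22 gene lists written, with earlier results of these data known. Counts were summed over the matched cells of each library and tested with edgeR 4.0.16 (R 4.3.3): filterByExpr, TMM, quasi-likelihood F test, Benjamini-Hochberg adjustment over all genes tested and a threshold of 0.05. Acan, Myh11, Mki67, Top2a and Cenpf were left out of the table and of the library sizes. The library was a block because both sets of a library come from 1 culture; the deviations of same-library sets correlated at 0.238 across 8663 genes. DESeq2 1.42.0, matching, depth and cell limits were varied as alternatives. A SE is the log2 fold change over the root of F. CPM, unlike the library sizes of the fits, are relative to all counts, those 5 genes included. Fits were tested on simulated data.

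Named were up to 10 genes a direction past the threshold that changed the same way in both libraries at 10 CPM or more, then the next 5 by p as values, and list members that passed with up to 4 a list, by mean level, that did not. Other list members are named where they are defining markers. Positions are from GENCODE M21, which held 30934 of the 31053 gene identifiers; 5 list genes were matched by older symbols. No doublet caller was run: doublets were addressed by leaving out the deepest cells and cells with 2 or more endothelial UMIs. The labels call the libraries biological replicates and name no animals. With the library as a block, differences in level between these 2 cultures do not enter the p-values. The p-values measure how far the difference between the sets varied between the 2 cultures, with spread estimated across genes. Overlapping genes were not examined.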

Additional observations from a re-analysis of the deposited data

Results flagged for a closer look

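Crct1 was marked for a difference between cell classes under the same contrast. The Acan contrast in contractile cells minus that in Myh11-negative cells was 9.47 on the log2 scale (edgeR, adjusted p = 0.00338). In contractile cells it was higher with Acan in both libraries, in sums where 1 cell held 160 of 351 UMIs in replicate 1 and 54 of 58 in replicate 2; in Myh11-negative cells it had 6 UMIs with Acan against 24 without in replicate 1, and 0 against 1 in replicate 2, too few in that library to give a direction. The share of Myh11-negative cells with an Acan UMI in replicate 1, 0.821%, did not exceed the 1.03% that free RNA alone would give contractile cells. Their median depths differed, at 19562 and 23776 UMIs. In replicate 2 it was 0.434%, against 0.134%. Acan over the Myh11-negative cells stood at 0.978 and 0.644 CPM, against 0.412 and 0.0669 CPM expected from free RNA in contractile cells. Which of the cells with an Acan UMI held only a background UMI was not tested.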

How the results depend on the processing

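The number of genes past the threshold in the Acan contrast (6) moved with most choices. It was 0 without the replicate block (509 genes at an unadjusted p under 0.05) and 0 with each cell thinned to 3000 UMIs (247 of 3097 genes at p under 0.05), 1 without TMM, 2 with mitochondrial UMIs under 10% and 2 without cells with Pdgfra or Lum UMIs. It was 14 with DESeq2, 51 without a filter on low counts, 21 with unmatched cells, 26 with Acan at 2 UMIs or more, 66 with Myh11 at 10 UMIs or more, 82 without cells above the 90th percentile of UMIs and 121 with matching on Myh11 too. Of the alternatives added after seeing the data, cycling cells gave 10 and Myh11 matching without the block 0 (571 at p under 0.05). Without cells with 2 or more endothelial UMIs it was 5. The difference between classes (1 call) gave 0 without the replicate block (285 at p under 0.05), 0 when thinned (135 at p under 0.05), 2 with DESeq2 and 101 without a filter. The mean share of Acan-positive cells, 18.7%, was 8.51% after thinning; without 1 replicate it ranged from 12.8% to 24.6%. The cause of these moves was not tested.

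The log2 fold change of Crct1 (7.55) ranged down to 4.25 with unmatched cells. The 16 named genes had 0 reversals under the alternatives that gave them a value; the same direction in each library alone was part of the rule that named the called genes and is no sign of stability. Adjusted p ranged up to 0.658 for Crct1, Cygb, Svep1 and Serpinf1, 0.724 for Basp1 and 0.68 for Igfbp4, in each case without the block. The fit had 1 residual degree of freedom per gene, so the calls lean on spread estimated across genes. With 1 library no test was possible. With 2 libraries of unequal Acan level, differences between the libraries have no further replicate.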
